A study of Mus musculus with 47 samples.

Results

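The response to MyoD1 induction was measured in C2C12iMyoD1 myoblasts that were kept in growth medium and never differentiated. The comparison took 6 of the 47 RNA-seq libraries of the series, 3 from cultures given doxycycline (dox) for 24 h and 3 from cultures given vehicle for 24 h, and these are all libraries of undifferentiated C2C12iMyoD1. The titles of the 0 h controls call them untreated while their treatment label says vehicle for 24 h, and they are called vehicle here. C2C12 is an immortalized mouse myoblast line. C2C12iMyoD1 is a polyclonal, puromycin-selected population of it that keeps its own Myod1 and also carries PiggyBac-integrated V5-Halo-MyoD1 alleles behind a dox-responsive TRE3G promoter. Both groups therefore held the transgene, both were grown in DMEM with 20% fetal bovine serum, and the dox treatment was the only labelled difference. Only a fraction of the nuclei expresses the transgene under dox, so the RNA of each dox culture came from a mixture of induced and uninduced cells. A gene that changed strongly in few cells and one that changed mildly in all cells cannot be told apart in such bulk RNA. No dox-treated culture without the transgene was used here, so the effects of dox itself and of MyoD1 cannot be told apart either. For a contrast between times, 6 further libraries of the same line were used, after 24 h of differentiation with dox or vehicle. Their titles call this 24 h of serum starvation, so the dox effects at 0 h and at 24 h were measured in different media.

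MyoD1 is a basic helix-loop-helix transcription factor of the skeletal muscle lineage. It pairs with E proteins such as those encoded by Tcf3, Tcf4 and Tcf12 and binds the E-box, CANNTG, with CAGCTG and CAGGTG as its familiar forms. In proliferating myoblasts MyoD1 is present while the differentiation genes are mostly silent. Serum withdrawal, cell cycle exit and Myog expression then lead to sarcomere assembly, fusion and the building of the membrane systems that couple nerve, membrane and contraction. Id proteins and cyclin D1, which serum keeps high, are known to hold MyoD1 activity back.

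The rule for named genes took 64 that rose over 2-fold, of which 41 had a promoter window and 22 of these held a CAGCTG or CAGGTG E-box. This count is per gene and for either motif, and it was not made over all genes tested. The shares at the end of this paragraph are per window and per motif and cannot be set against it. The 10 stretches below were picked from those 22 because these genes carry the muscle and membrane response described further on. The 250 bases before each RefSeq start site (GRCm38.p6) were searched on both strands for CAGCTG, which is its own reverse complement, and for CAGGTG, which reads CACCTG on the other strand. No site can be both motifs. Each sequence runs 5′ to 3′ on the gene's strand, and capitals mark the motifs. CAGCTG stood before Chrng at chr1:87205636-87205704 (plus strand), Hrc at chr7:45335227-45335268 (plus strand), Atp2a1 at chr7:126463103-126463148 (minus strand), Pygm at chr19:6384220-6384407 (plus strand) and Sytl1 at chr4:133263088-133263239 (minus strand).
Chrng: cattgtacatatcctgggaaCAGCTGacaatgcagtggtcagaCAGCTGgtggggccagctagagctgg
Hrc: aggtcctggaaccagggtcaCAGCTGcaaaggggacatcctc
Atp2a1: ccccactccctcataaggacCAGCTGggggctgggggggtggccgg
Pygm: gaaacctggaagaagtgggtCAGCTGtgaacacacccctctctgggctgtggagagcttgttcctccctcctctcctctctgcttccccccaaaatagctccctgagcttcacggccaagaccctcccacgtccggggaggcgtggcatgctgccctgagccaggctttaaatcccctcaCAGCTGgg
Sytl1: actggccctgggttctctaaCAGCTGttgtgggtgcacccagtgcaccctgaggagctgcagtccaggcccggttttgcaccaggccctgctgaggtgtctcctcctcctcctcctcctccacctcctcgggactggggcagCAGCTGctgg
CAGGTG, on either strand, stood before Adgrg1 at chr8:94976883-94977073 (plus strand), Slc17a7 at chr7:45163724-45163769 (plus strand), Chrnb1 at chr11:69795941-69795986 (minus strand), Cyfip2 at chr11:46312554-46312599 (minus strand) and Mcam at chr9:44134426-44134471 (plus strand).
Adgrg1: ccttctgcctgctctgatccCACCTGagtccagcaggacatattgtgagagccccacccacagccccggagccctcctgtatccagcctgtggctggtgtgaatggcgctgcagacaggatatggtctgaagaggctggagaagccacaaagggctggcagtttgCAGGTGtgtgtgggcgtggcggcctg
Slc17a7: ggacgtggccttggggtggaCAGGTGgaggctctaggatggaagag
Chrnb1: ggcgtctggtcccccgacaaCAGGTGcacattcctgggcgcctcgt
Cyfip2: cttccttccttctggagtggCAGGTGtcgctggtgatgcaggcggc
Mcam: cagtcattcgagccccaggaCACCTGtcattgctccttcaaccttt
Chrng, Pygm and Sytl1 each held 2 copies of CAGCTG. Adgrg1 held CACCTG at position -206 and CAGGTG at position -61 from 1 of its 2 annotated start sites, and neither motif before the other. Ryr1, Gpr179, Cadm4, Cdh15, Cdh23 and Sgca were among the 19 that had neither motif in their windows. Both motifs also stood before genes that did not rise. CAGCTG stood in 16.6% of the 379 windows of genes that rose over 2-fold, in 18.0% of the 122 windows of genes that fell over 2-fold and in 12.1% of the 12726 windows of all genes tested. CAGGTG stood in 21.9%, 15.6% and 15.0% of the same windows. The windows covered 284 of the 394 genes that rose and 94 of the 184 that fell over 2-fold.

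Total counts per library ran from 17870326 to 22238898 in the dox cultures (median 18451257) and from 16241656 to 19335596 in the vehicle cultures (median 19306277), and between 18065 and 18767 genes had at least 1 count. Mitochondrially encoded genes took 3.85% to 4.51% of the counts with dox and 3.93% to 4.17% with vehicle. The first principal component took 70.6% of the variance and separated dox from vehicle. The labels name the samples of a group biological replicates, and the p-values below measure only the spread between these samples. Levels are given in CPM, counts scaled to a common library size with edgeR's TMM factors, and a gene is said to have risen or fallen where edgeR's quasi-likelihood test gave a Benjamini-Hochberg adjusted p-value under 0.05. SE is the standard error of a log2 fold change.

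Myod1 itself (ENSMUSG00000009471, GRCm38 chr7:46376474-46379099, plus strand) did not pass the test at 0 h, with 213, 192 and 206 CPM with dox and 195, 184 and 193 CPM with vehicle. The groups overlapped, and the log2 fold change was 0.094 (95% confidence interval -0.025 to 0.21, edgeR adjusted p = 0.201). All these counts fell on the one annotated Myod1 transcript, and whether the transgene was part of the authors' reference is not given in the sources used here. The count of Myod1 is therefore no check of the dox labels, and dox and vehicle are used below as the labels give them. All 10 myoblast identity markers examined, among them Myod1, Myf5, Des, Cdh15, Itga7, Vcam1, Ncam1, Met and Chrna1, were detected, with a summed level from 1521 to 1551 CPM with dox and from 1388 to 1433 CPM with vehicle. Of these 10, 3 rose and 4 fell.

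Of 13550 genes tested, 2592 rose (19.1%) and 2530 fell (18.7%), 37.8% in all. The shifts were small for most of them, with a median absolute log2 fold change of 0.37 among the 5122 genes past the adjusted p-value. By the criterion of an adjusted p-value under 0.05 and a fold change over 2, 394 genes rose (2.91%) and 184 fell (1.36%), and 74 rose and 21 fell over 4-fold. The genes that rose over 2-fold were mostly weakly expressed with vehicle. Their median level with vehicle was 1.05 CPM, against 4.45 CPM for the genes that fell over 2-fold and 29.5 CPM for all genes tested. Vehicle is the lower group of a risen gene and the higher group of a fallen one, and the low-count filter keeps a gene through its higher group. The part of this choice in the gap was not tested. Only 1 of the 394 had more than 50 CPM with vehicle, while 32 of the 184 did. Within these 2 sets the losses were larger in CPM, which is a share of the library and no absolute amount. The genes that rose over 2-fold gained 1796 CPM in sum, while the summed level of the genes that fell over 2-fold dropped by 7653 CPM. Abundant genes such as Thbs1 and Spp1 are part of that drop. Protein-coding genes made up 384 of the 394 and 134 of the 184, against 12276 of the 13550 genes tested. The dox and vehicle libraries did not overlap for 388 of the 394 and 179 of the 184. Among all genes tested 25% had every dox library above every vehicle library and 24.1% had every dox library below.

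**Figure D1:**
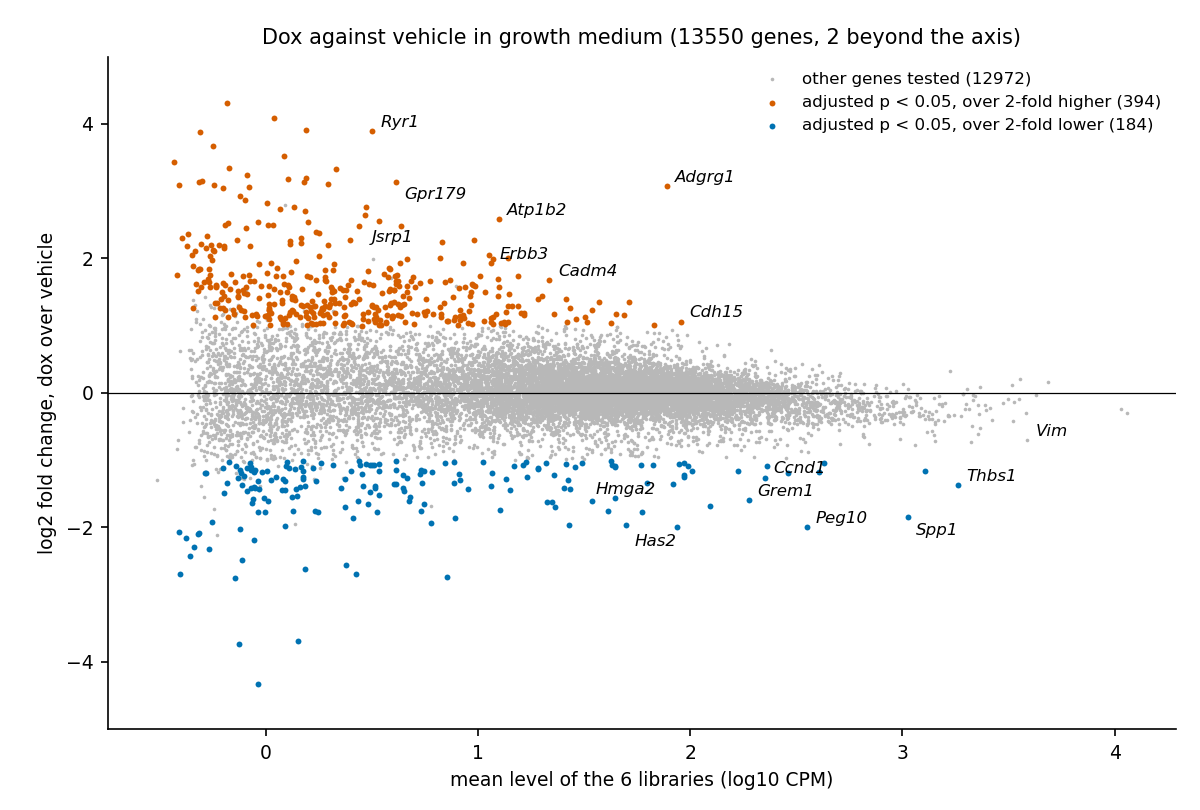
Log2 fold change of dox over vehicle (vertical axis) against the mean level of the 6 libraries on a log10 CPM scale (horizontal axis), with 1 point per gene tested. The genes that rose over 2-fold (orange, 394) lie mostly to the left, and the genes that fell over 2-fold (blue, 184) reach to abundant transcripts such as Spp1 and Thbs1. The 2 genes beyond the axis are left out.

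Base composition moved with the direction of change. The median GC content of the transcripts was 55.5% for the genes that rose over 2-fold, 48.1% for those that fell over 2-fold and 50.4% for all genes tested. Across 5 equal bins of GC content the median log2 fold change went from -0.044 in the poorest to 0.08 in the richest. The trend was steepest in dox replicate 1, whose median deviation from the gene means went from -0.088 to 0.046 across the bins, and its part in the results was tested only by an offset for GC content, chosen after the data were seen, under which 382 genes rose and 186 fell over 2-fold.

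Among genes with at least 5 CPM in the higher group, the largest rise was that of Ryr1 (ENSMUSG00000030592, GRCm38 chr7:29003344-29125179, minus strand), which encodes the calcium release channel of the sarcoplasmic reticulum. Its level was 7.28, 5.22 and 5.26 CPM with dox and 0.128, 0.807 and 0.214 CPM with vehicle, so the groups did not overlap, with a change of 3.89 on the log2 scale (SE 0.39, edgeR adjusted p = 4.54e-06). The vehicle libraries had few Ryr1 counts (2, 15 and 4), against 168, 100 and 97 with dox. Vehicle replicate 2 held most of them, and without that library the change was 5.03 on the log2 scale (edgeR adjusted p = 6.04e-06). Jsrp1, a protein of the junctional sarcoplasmic reticulum, rose with it, from 2.37 ± 0.102 CPM with vehicle to 11.2 ± 0.597 CPM with dox (SD, n = 3 each), with a change of 2.24 on the log2 scale (SE 0.15, edgeR adjusted p = 1.18e-07). Adgrg1 (ENSMUSG00000031785, GRCm38 chr8:94974751-95014217, plus strand), an adhesion G protein-coupled receptor, gained more CPM than any other gene that rose over 2-fold. It stood at 148, 136 and 131 CPM with dox and 15.3, 17.8 and 16.1 CPM with vehicle, and all of its estimated counts fell on 1 of its 2 annotated transcripts in both groups, with a change of 3.08 on the log2 scale (SE 0.077, edgeR adjusted p = 9.92e-12). Gpr179, an orphan receptor known from the retina, rose from 0.829 ± 0.0760 CPM with vehicle to 7.35 ± 0.653 CPM with dox (SD, n = 3 each), with a change of 3.13 on the log2 scale (SE 0.22, edgeR adjusted p = 1.54e-07).

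Several of the other leading genes encode transporters and vesicle proteins. Atp1b2, a beta subunit of the sodium pump, had 24.7, 19.6 and 20.1 CPM with dox and 3.72, 3.71 and 3.32 CPM with vehicle, 2.59 on the log2 scale (SE 0.13). Slc38a3, a glutamine transporter, rose from 0.983 to 5.84 CPM (2.56 on the log2 scale), and Slc17a7, the vesicular glutamate transporter VGLUT1, from 3.31 to 15.9 CPM (2.28). Sytl1, a synaptotagmin-like effector of Rab27, rose from 0.797 to 5.08 CPM (2.64), Cyfip2, a subunit of the actin-regulating WAVE complex, from 0.768 to 5.17 CPM (2.76) and Hap1, the huntingtin-associated protein, from 4.38 to 18.2 CPM (2.05). Nol4l rose from 1.31 to 7.31 CPM (2.48), and Dgat2, which makes triglycerides, from 5.53 to 22.2 CPM (2.00). None of these genes had overlapping groups, which the rule that chose them required, and the highest edgeR adjusted p among all 12 was 4.54e-06 (Ryr1).

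Several of the largest falls were of genes for secreted factors and matrix. Peg10 (ENSMUSG00000092035, GRCm38 chr6:4747306-4760517, plus strand), an imprinted gene of retrotransposon origin, fell from 576, 554 and 582 CPM with vehicle to 158, 137 and 132 CPM with dox, with a change of -2.00 on the log2 scale (SE 0.066, edgeR adjusted p = 1.22e-10). Spp1 (ENSMUSG00000029304, GRCm38 chr5:104435118-104441050, plus strand), which encodes the secreted phosphoprotein osteopontin, was among the most abundant transcripts and fell from 1650.4, 1665 and 1645 CPM to 437, 460.1 and 487 CPM, with a change of -1.84 on the log2 scale (SE 0.055, edgeR adjusted p = 5.79e-11). For both genes the vehicle libraries lay close together and all dox libraries lay far below them. Has2, the hyaluronan synthase, fell from 79.5 to 20.2 CPM (-1.97 on the log2 scale), Mgp, the matrix Gla protein, from 189 to 58.7 CPM (-1.69) and Phex, an endopeptidase of mineralizing tissue, from 19.5 to 5.82 CPM (-1.74). The secreted-factor genes Fgf7 (42.6 to 11 CPM), Il33 (35.3 to 10.9 CPM), Ccl7 (5.14 to 1.52 CPM) and Penk (9.52 to 2.49 CPM), which encodes the enkephalin precursor, had log2 fold changes of -1.96, -1.70, -1.77 and -1.93. Hmga2, a chromatin protein of proliferating and embryonic cells, fell from 63.5 to 18.7 CPM (-1.76), Dynap from 139 to 34.7 CPM (-2.00) and Gas2, an actin-associated protein whose exons overlap Fancf on the opposite strand, from 91.4 to 26.7 CPM (-1.78).

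**Figure D2:**
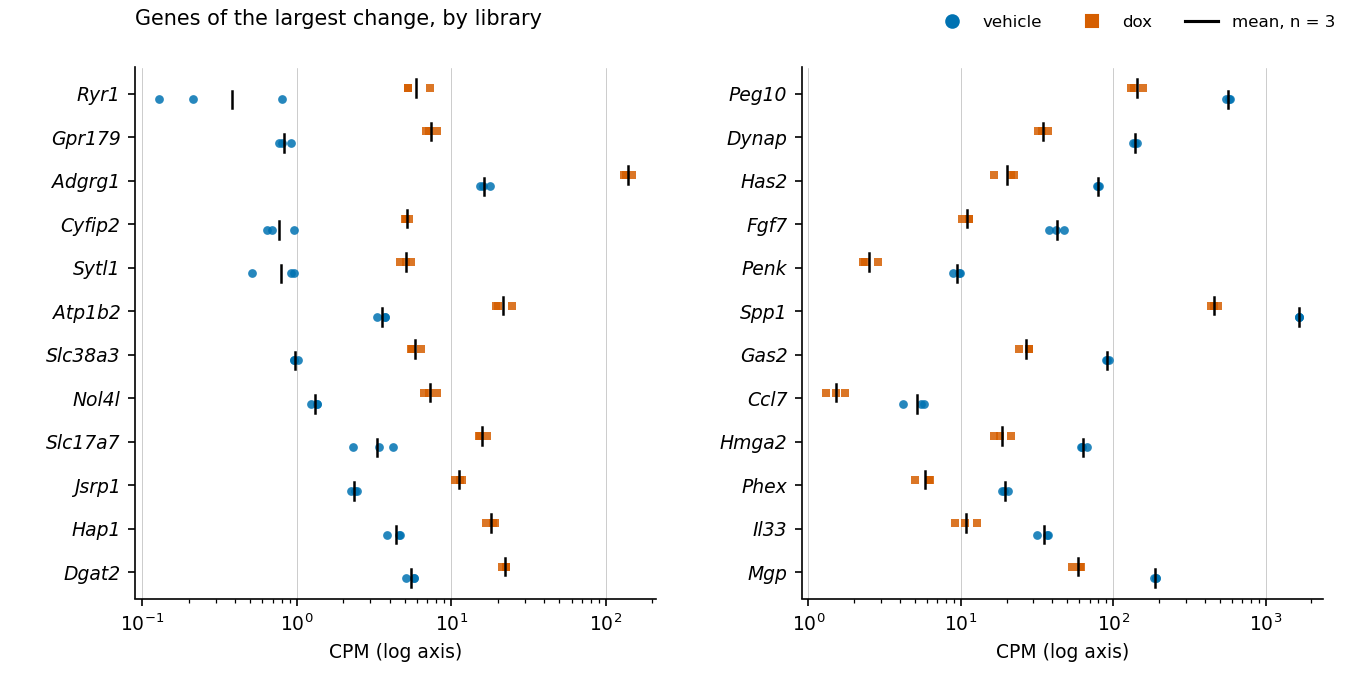
Level of the 12 genes with the largest rise (left) and the 12 with the largest fall (right) in each library, as CPM on a log axis, with vehicle in blue circles, dox in orange squares and group means as black lines (n = 3). In every row the 3 dox libraries lie to 1 side of the 3 vehicle libraries, as the choice of these genes required. Ryr1, with vehicle libraries from 0.128 to 0.807 CPM, shows how far few counts can scatter on this axis.

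The gene lists below were counted over the members tested. The low-count filter keeps a gene that is expressed in 1 group only, so these counts describe the genes that passed and not every member. The risen share was 15% to 25%, near the 19.1% of all genes, for the lists of fusion, cell cycle exit, YAP and TEAD targets, serum response factor targets, p53 targets, TGF-beta signalling, matrix, imprinted, bone and cartilage, and mitochondrially encoded genes, integrins, adhesion G protein-coupled receptors and potassium channels. The fallen share of these lists was 12% for potassium channels and 15.4% for mitochondrially encoded genes. For the others it ran from 30.8% (adhesion G protein-coupled receptors) to 51.4% (matrix). Every list count below stands beside 19.1% risen and 18.7% fallen of all genes tested, and no difference from these was tested. The median log2 fold change over all genes tested was 0.00039.

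No tested member of the list of myogenic regulators was called as risen. Of 16 myogenic regulators tested, 0 rose and 5 fell by edgeR's test, 3 were higher with an unadjusted p under 0.05, and 0 rose with DESeq2. Myf5, the myogenic factor of the myoblast stage, fell by 1.00 on the log2 scale, from 21.8, 18.5 and 19.4 CPM with vehicle to 9.96, 9.39 and 10.5 CPM with dox (edgeR adjusted p = 4.12e-06). Eya4, the gene of a transcriptional cofactor, fell slightly (log2 fold change -0.24, named after its value was seen). Mef2a, with 133, 129 and 119.5 CPM with dox and 112, 122 and 109.8 CPM with vehicle, differed by 0.15 on the log2 scale (edgeR adjusted p = 0.0651), and the inhibitor gene Id3 differed by 0.098 (95% confidence interval -0.036 to 0.23). Tcf12, the gene of an E-protein partner of MyoD1, stood at -0.05 (95% confidence interval -0.16 to 0.059), and Pax7 stood highest in the list at 0.24 (edgeR adjusted p = 0.0698). The other 7 members were not tested for lack of counts, and none exceeded 0.48 CPM in any library. Among them was Myog, the factor that opens terminal differentiation, with 1, 2 and 5 counts with dox and 0, 1 and 2 counts with vehicle. A change in Myog was not detectable at this depth.

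Of 17 fusion genes tested, 4 rose and 7 fell (23.5% and 41.2%, against 19.1% and 18.7% of all genes), with a median log2 fold change of 0.0084. Mymk, which encodes the fusion protein myomaker, had 29, 23 and 32 counts with dox and 1, 7 and 8 with vehicle, so it rose (2.19 on the log2 scale, SE 0.46, edgeR adjusted p = 0.00184) but stayed below 2 CPM. Mymx, its partner myomixer, had at most 8 counts in any library and was not tested. Cdh15, the muscle cadherin M-cadherin, rose from 57.4, 58.6 and 59.0 CPM to 119, 124 and 122 CPM, and the groups were far apart relative to their spread, with a change of 1.06 on the log2 scale (SE 0.055, edgeR adjusted p = 8.53e-09). Kirrel3 (log2 fold change -0.82), whose relatives mediate myoblast attachment in flies, Elmo1 (-0.71), Myof (-0.42) and Cd9 (-0.34) fell; the latter 3, a Rac activator subunit, myoferlin and a tetraspanin, were named after their values were seen.

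Most genes of the contractile apparatus stood at a very low level in both groups. Of 19 sarcomere genes tested, 8 rose and 2 fell, and their median log2 fold change was 0.30, which turned to -0.051 when only genes with at least 1 CPM in 3 libraries were kept. Synpo2l rose from 1.08 to 3.09 CPM (1.51 on the log2 scale), Tnnc2, fast troponin C, from 0.236 to 0.841 CPM (1.85), Tnni2, fast troponin I, from 0.429 to 0.991 CPM (1.18) and Ttn, titin, from 0.683 to 1.40 CPM (1.01). Tnnc2 overlaps Ube2c on the opposite strand, the calls of Tnni2 and Ttn were lost with DESeq2 and in most fits with 1 library left out, and that of Tnnc2 without vehicle replicate 3 (adjusted p = 0.0556). Tnnt2, the cardiac and embryonic troponin T, fell from 36.2 to 20.0 CPM (-0.86). Another 29 members in the table were not tested, none above 1.04 CPM in any library, and Myh4, Myh8, Myl2, Myl3, Myoz3, Myot and Lmod2 had 0 counts in all 6 libraries.

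Genes tested of the muscle membrane systems were mostly higher with dox. Among 21 genes of excitation-contraction coupling, 12 rose and 2 fell (57.1% and 9.52%, against 19.1% and 18.7% of all genes). Over 2-fold, 6 rose and 1 fell, against 2.91% and 1.36% of all genes, with a median log2 fold change of 0.60. The summed level of the list was alike, from 1487 to 1491 CPM with dox and from 1470 to 1504 CPM with vehicle. Besides Ryr1 and Jsrp1, Stac3, the adaptor between the voltage sensor and the release channel, had 3.51, 4.54 and 4.39 CPM with dox and 0.898, 0.915 and 0.750 CPM with vehicle (2.27 on the log2 scale). Hrc, the histidine-rich calcium-binding protein of the reticulum lumen, rose from 0.228 to 1.04 CPM (2.16), Mrln, the micropeptide myoregulin that inhibits the calcium pump, from 0.400 to 1.27 CPM (1.66) and Atp2a1, the fast-muscle calcium pump SERCA1, from 1.10 to 2.52 CPM (1.22). Atp2a1 overlaps Rabep2 on the opposite strand and lost its call without dox replicate 2, vehicle replicate 2 or vehicle replicate 3 (adjusted p between 0.0663 and 0.0936). Its paralog Atp2a2, which was abundant with vehicle, rose by 0.14 only (from 220.2 to 243 CPM, named after its value was seen). Clcn1, the muscle chloride channel, fell from 1.89 to 0.857 CPM (-1.14); its exons overlap Fam131b on the opposite strand, and its call was lost without vehicle replicate 3 (adjusted p = 0.0535).

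Most of the neuromuscular junction genes tested rose. Of 15 tested, 9 rose and 3 fell (60% and 20%, against 19.1% and 18.7% of all genes), with a median of 0.65. The summed level of the list ran from 1784 to 1818 CPM with dox and from 1814 to 1874 CPM with vehicle. Acetylcholine receptor subunits were among the genes that rose, as Chrnb1 rose from 30.3, 29.0 and 23.4 CPM to 60.9, 59.8 and 64.6 CPM (1.17 on the log2 scale). Chrnd had 6.19, 5.74 and 6.88 CPM with dox and 1.99, 2.37 and 1.55 CPM with vehicle (1.67), and the fetal subunit gene Chrng rose from 1.54 to 3.10 CPM (1.01). Erbb3, a neuregulin receptor, rose from 4.82 to 18.1 CPM with a change of 1.93 on the log2 scale (SE 0.18, edgeR adjusted p = 2.11e-06), and Dok7, the cytoplasmic activator of the receptor kinase MuSK, from 4.14 to 11.1 CPM (1.42). Chrna1 (52.5 to 74.1 CPM), Musk (7.36 to 13.3 CPM) and Rapsn (21.9 to 40.0 CPM), the alpha subunit, the receptor kinase and the receptor-clustering protein, rose by less than 2-fold and were named after their values were seen. Lrp4, the agrin receptor, stood lowest and fell by 0.38 on the log2 scale.

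The dystrophin-associated complex, which anchors the cytoskeleton to the matrix, had 8 of 18 members risen and 0 fallen by edgeR's test, 1 lower by unadjusted p under 0.05 and 0 fallen with DESeq2. The risen share was 44.4%, and of all genes tested 19.1% rose and 18.7% fell. The summed level of the list ran from 1000 to 1087 CPM with dox and from 849 to 895 CPM with vehicle. Sgca, the alpha sarcoglycan, rose from 4.94, 4.68 and 4.6 CPM to 18.7, 20.5 and 17.4 CPM, with a change of 1.99 on the log2 scale (SE 0.12, edgeR adjusted p = 2.69e-08). Nos1, neuronal nitric oxide synthase, rose from 0.622 to 1.91 CPM (1.61). In muscle metabolism, 5 of 12 genes rose and 2 fell (41.7% and 16.7%). Pygm, muscle glycogen phosphorylase, rose from 0.454 to 2.70 CPM (2.55), Slc2a4, the insulin-responsive glucose transporter GLUT4, from 3.38 to 10.5 CPM (1.64) and Fabp3, a fatty acid binding protein whose exons overlap Zcchc17, from 1.10 to 2.69 CPM (1.3). Eno3, muscle enolase, fell by 0.26 on the log2 scale.

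**Figure D3:**
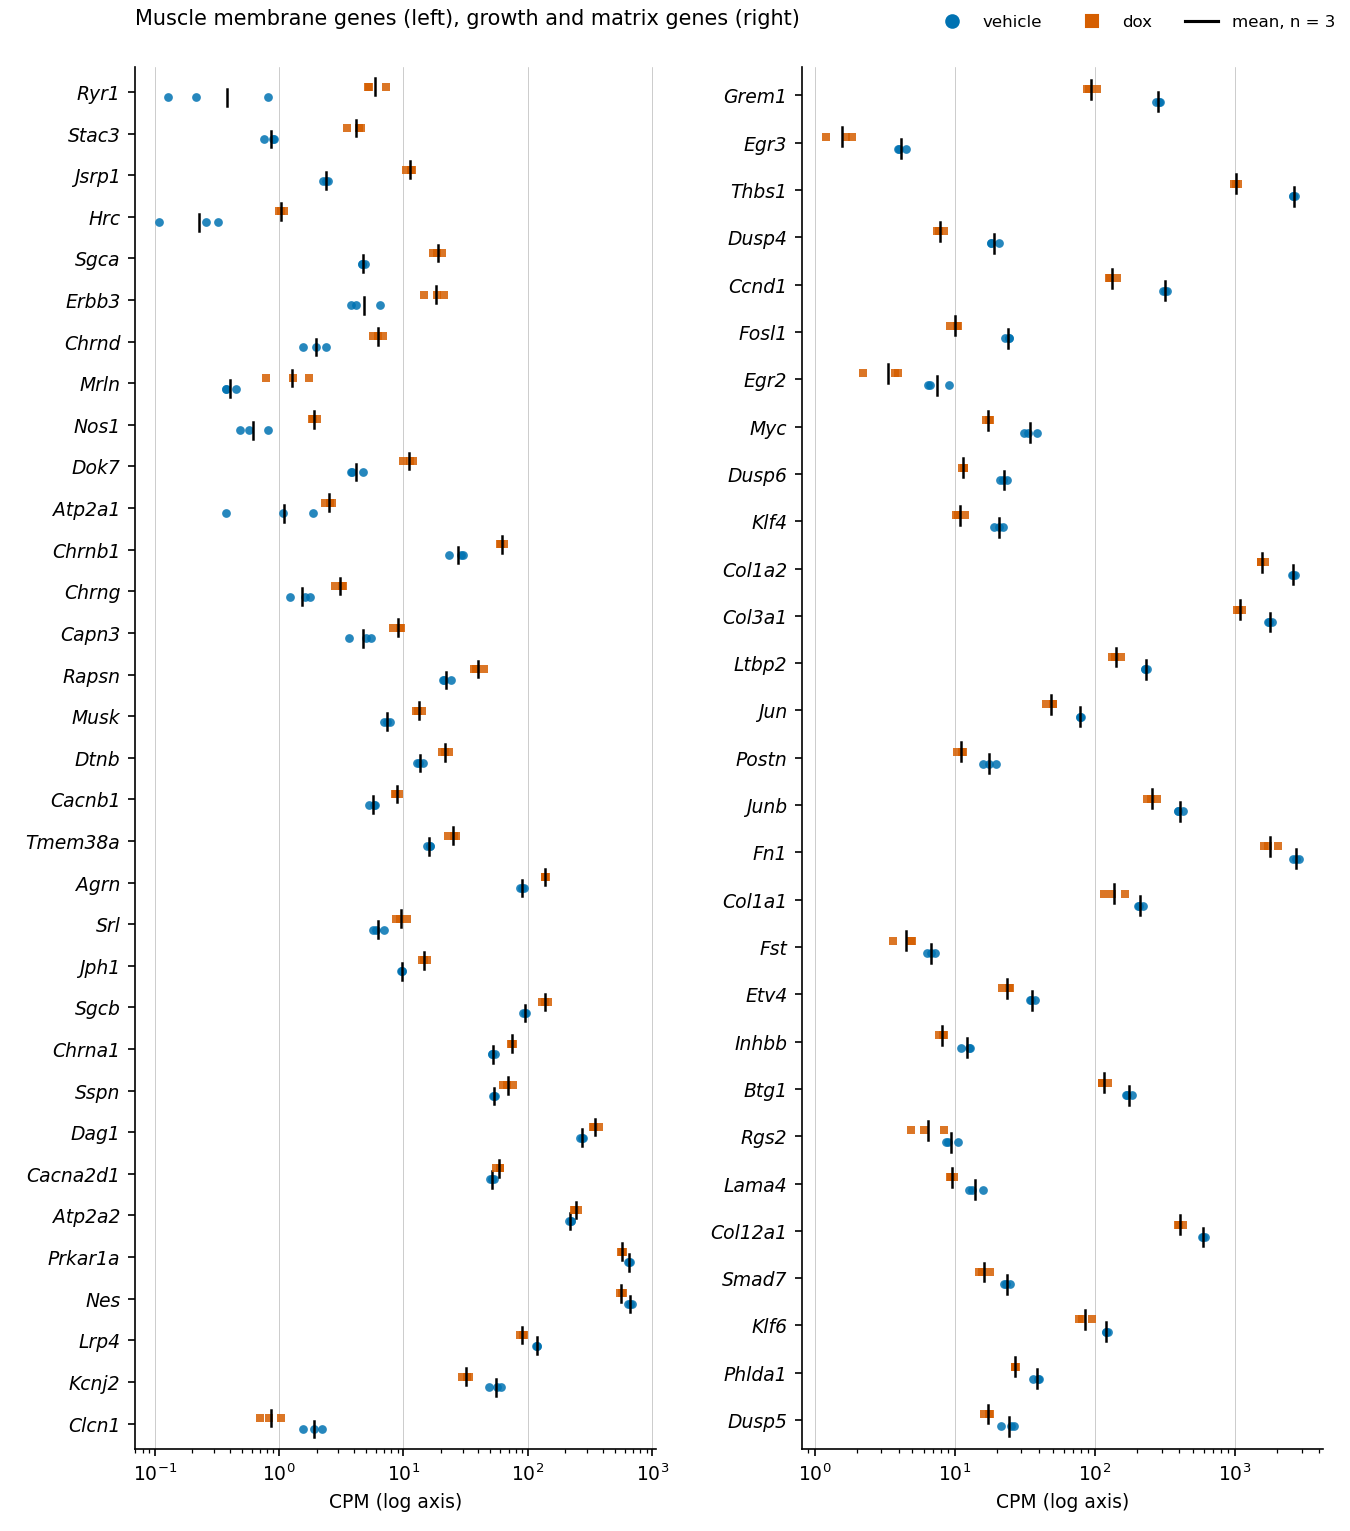
Level in each library (CPM, log axis) of 33 of the 34 genes of excitation-contraction coupling, the neuromuscular junction and the dystrophin complex past an adjusted p-value of 0.05 (left), and of 29 growth, signalling and matrix genes that fell by over 0.5 on the log2 scale (right). Vehicle libraries are blue circles, dox libraries orange squares and black lines group means (n = 3). On the left, Ryr1 and Stac3 lie far to the right with dox, and on the right Grem1, Thbs1 and Ccnd1 are abundant genes that lie to the left.

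The 5 adhesion candidates were picked by the study partly on RNA of this line, so their direction is not independent evidence, and 4 of them rose and 1 fell. Cadm4, an immunoglobulin-type adhesion molecule, stood at 33.3, 35.2 and 30.5 CPM with dox and 11.2, 9.58 and 10.3 CPM with vehicle and had a change of 1.68 on the log2 scale (SE 0.09, edgeR adjusted p = 1.32e-08). Mcam, the adhesion molecule CD146, rose from 9.01 ± 0.935 CPM with vehicle to 21.9 ± 3.34 CPM with dox (SD, n = 3 each), or by 1.29 on the log2 scale. Cdh23, an atypical cadherin, had only 24, 15 and 37 counts with vehicle and 93, 61 and 66 with dox (1.32 on the log2 scale, SE 0.30), and Cdh15 is described with the fusion genes. Itga3, an integrin alpha subunit of laminin receptors, was lower in every dox library (362, 350.2 and 353 CPM with dox and 421, 418 and 416 CPM with vehicle), a log2 fold change of -0.24 that did not pass a test against a fold of 1.2 (adjusted p = 0.974).

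The shares given for the other adhesion families stand beside 19.1% risen and 18.7% fallen of all genes tested, and no difference from these was tested. Among 18 integrins tested, 3 rose and 6 fell (16.7% and 33.3%), with Itgal at 1.27 and Itgb7 at -1.06 on the log2 scale as the extremes, both under 5 CPM; the call of Itgal was lost without vehicle replicate 1 (adjusted p = 0.0532). Of 8 cadherins, 3 rose and 3 fell, and Cdh18 fell from 20.7 to 7.62 CPM (-1.44). Of 13 adhesion G protein-coupled receptors, 2 rose and 4 fell (15.4% and 30.8%): beside Adgrg1, Adgrl1, the latrophilin 1 receptor, rose from 188 ± 6.0 CPM with vehicle to 293 ± 11.7 CPM with dox (SD, n = 3 each), while its relative Adgrl3 fell from 42.8 to 22.6 CPM (-0.91). Nectin2 rose by 0.86 and Nectin3 fell by 0.33 (the former named after its value was seen). Among 26 clustered protocadherins 3 rose and 1 fell (11.5% and 3.85%), and the highest, Pcdhgc4 (1.59), shares exons with its neighbours and did not pass (edgeR adjusted p = 0.121), but passed without vehicle replicate 2 (3.86, edgeR adjusted p = 0.00835). Of 4 claudins tested, 2 fell.

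Axon guidance genes moved in both directions, with 14 of 44 semaphorins, plexins, ephrins and Eph receptors risen and 12 fallen. Sema5b (2, 7 and 1 counts with vehicle, 33, 31 and 22 with dox) and Plxnb3 (3, 6 and 7 and 33, 22 and 49) rose from near 0. Sema3g rose from 1.63 to 5.60 CPM (1.77 on the log2 scale), Sema4g from 2.43 to 6.78 CPM (1.5) and Efna3, whose exons overlap Gm15998, from 4.84 to 13.7 CPM (1.49). Epha1, whose exons overlap Zyx on the opposite strand, fell from 26.2 to 12 CPM (-1.12). Of 25 potassium channel genes tested, 5 rose and 3 fell, shares of 20% and 12% against 19.1% and 18.7% of all genes, with Kcnn3, a small-conductance calcium-activated channel, going from 7.44 to 20.6 CPM (1.47), Kcnab2 from 1.23 to 3.54 CPM (1.53) and Kcnh3, whose exons overlap Mcrs1 on the opposite strand, from 1.38 to 2.87 CPM (1.05).

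Neuronal and synaptic genes also rose more often than they fell, 17 against 5 of 34 tested, with a median log2 fold change of 0.31, while 45 members were not tested and none of these exceeded 1.03 CPM. Apart from Slc17a7, the tau gene Mapt rose from 1.19 to 3.44 CPM (1.52), the postsynaptic scaffold gene Shank2 from 1.12 to 3.35 CPM (1.56), Syt7, a calcium sensor of exocytosis, from 1.84 to 4.48 CPM (1.28) and the synapsin gene Syn2 from 0.457 to 1.07 CPM (1.23), whose call was lost with DESeq2 (adjusted p = 0.0547) and without dox replicate 1, vehicle replicate 2 or vehicle replicate 3. Slc17a6, the vesicular transporter VGLUT2 and a relative of Slc17a7, went the other way, with 20, 29 and 45 counts with vehicle and 4, 1 and 0 with dox. Of the 15 neural basic helix-loop-helix factors, relatives of MyoD1 that read similar E-boxes, 14 had 0 counts in all 6 libraries and none exceeded 0.11 CPM.

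In the Notch pathway, which keeps satellite cells undifferentiated, 8 of 23 genes rose and 3 fell. Mfng, a glycosyltransferase that modifies Notch receptors, had 25, 18 and 19 counts with dox and 0 in each vehicle library, at least 5.93-fold higher when 3 counts are taken as the floor of each vehicle library. Heyl, a Notch target gene, rose from 0.468 to 1.43 CPM (1.60 on the log2 scale). Rbpj, the DNA-binding partner of active Notch, fell from 81.4 to 55.9 CPM (-0.54). Of 26 interferon response genes, 13 rose and 1 fell (50% and 3.85%), with a median of 0.40. Psmb9, an immunoproteasome subunit, rose from 1.87 to 6.26 CPM (1.74) and shares exon bases with Tap1, which also rose (0.63, named after its value was seen). Oas1a (0.168 to 0.824 CPM), Rsad2 (0.425 to 1.68 CPM) and Irf7 (2.05 to 4.53 CPM, exons overlapping Phrf1), antiviral genes and a regulator of them, rose by 2.22, 1.93 and 1.14.

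Most cell cycle genes that passed the test fell in small steps. Of 36 DNA replication genes, 0 rose and 27 fell, and of 30 mitosis genes, 0 rose and 18 fell, with medians of -0.29 and -0.15 and no member changed over 2-fold. By unadjusted p under 0.05, 1 and 0 were higher, and DESeq2 called 0 and 0 as risen. The extremes were Rfc3, a clamp loader subunit, which fell by 0.72 on the log2 scale, and Mad2l1, a spindle checkpoint gene, which fell by 0.40. Mki67, the proliferation marker, went from 932 to 846 CPM (-0.14, named after its value was seen). Ccnd1, the cyclin that serum induces and whose exons overlap LTO1 on the opposite strand, fell far more, from 328, 317 and 309.7 CPM to 144, 126 and 128 CPM, with a change of -1.26 on the log2 scale (SE 0.059, edgeR adjusted p = 4.55e-09). Of 16 genes of cell cycle exit, 4 rose and 5 fell, with Gadd45a highest at 0.48. Cdkn1a, the p21 inhibitor gene, fell by 0.26 and Rb1 rose by 0.47 (both named after their values were seen).

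Serum- and ERK-responsive genes were mostly lower with dox. Of 33 immediate-early and ERK feedback genes, 2 rose and 18 fell, and their median log2 fold change was -0.31. Fosl1, the AP-1 subunit FRA1, whose exons overlap Ccdc85b, fell from 24.3, 23.1 and 24.6 CPM to 10.5, 9.23 and 10.5 CPM (-1.25 on the log2 scale). The zinc finger genes Egr3 (4.13 to 1.58 CPM) and Egr2 (7.44 to 3.32 CPM) and the ERK phosphatase gene Dusp4 (19.1 to 7.85 CPM) had log2 fold changes of -1.39, -1.15 and -1.28. Myc fell from 34.5 to 17.4 CPM (-0.99) and Egr1 did not pass the test (-0.021, 95% confidence interval -0.17 to 0.13); both were named after their values were seen. Atf3, the gene of a stress-induced bZIP factor, rose from 0.615 to 1.56 CPM (1.32). Of 21 YAP and TEAD targets, 5 rose and 7 fell, with F3, tissue factor, down from 89.9 to 35.4 CPM (-1.35). Of 22 serum response factor targets and smooth-muscle contractile genes, 5 rose and 10 fell, with Cnn1, calponin, at 1.02 and Flna, filamin A, at -0.50 as extremes.

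Targets of ATF4, the factor of the amino acid and mitochondrial stress response, fell with 17 of 23 members past the test and 0 risen, a median of -0.39 (0 higher by unadjusted p under 0.05, 0 risen with DESeq2). Chac1, a glutathione-degrading enzyme, fell from 10.3 to 5.05 CPM (-1.02) and Asns, asparagine synthetase, from 156, 146 and 139.8 CPM to 82.6, 84.3 and 72.8 CPM (-0.88, named after its value was seen). Of 13 mitochondrially encoded genes, 2 rose and 2 fell. The higher of both that rose, mt-Nd3 (0.80), lost its call with DESeq2 (adjusted p = 0.119) and without dox replicate 3, vehicle replicate 2 or vehicle replicate 3. mt-Co1 lost more CPM than any other gene that fell (9313, 11223 and 10367 CPM with dox and 12804, 12828 and 12435 CPM with vehicle, a log2 fold change of -0.30), and mt-Nd2 gained more CPM than any other gene that rose (1711, 2093 and 1800.1 CPM with dox and 1515, 1504 and 1432 CPM with vehicle, 0.33). Gm28438, which rose from 348 to 463 CPM, is a copy of mitochondrial sequence whose counts share reads with mt genes and are uncertain. Of 20 p53 targets, 5 rose and 7 fell, from Plk2 at -1.16 to Trp53i11 at 1.06.

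Matrix genes fell more often than they rose, 19 against 7 of 37 tested. Thbs1, thrombospondin 1, fell from 2623, 2612 and 2692 CPM to 1063, 985 and 1018 CPM, with a change of -1.37 on the log2 scale (SE 0.051, edgeR adjusted p = 4.75e-10). Col1a2, a chain of type I collagen, fell from 2613 ± 68.3 CPM with vehicle to 1578 ± 63.4 CPM with dox (SD, n = 3 each), and Vim, the intermediate filament vimentin, from 4805 ± 157 CPM with vehicle to 2941 ± 189.6 CPM with dox (SD, n = 3 each). Laminins moved in both directions, with Lama5 at 443, 361 and 353 CPM with dox and 292, 286 and 279 CPM with vehicle (0.43 on the log2 scale) and Lamb3 highest in the list at 0.67; dox replicate 1 stood above the other dox libraries in Lama5. Anxa6, a membrane-binding annexin, was likewise highest in dox replicate 1 (651, 518 and 518 CPM with dox and 468, 477 and 431 CPM with vehicle), and its call was lost without vehicle replicate 3 (adjusted p = 0.0621). Eef1a1, the translation elongation factor, fell by 0.24.

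Of 34 genes of TGF-beta, BMP and myostatin signalling, 6 rose and 14 fell. Grem1, a BMP antagonist, fell from 273, 287 and 295 CPM to 104, 90.4 and 87.8 CPM with a change of -1.60 on the log2 scale (SE 0.067, edgeR adjusted p = 1.42e-09), and Gdf11, the relative of myostatin, rose from 21.2 to 43.8 CPM (1.05). Among 20 imprinted and IGF genes, 3 rose and 10 fell, Peg10 lowest and Nnat highest (0.75, edgeR adjusted p = 0.183).

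**Figure D4:**
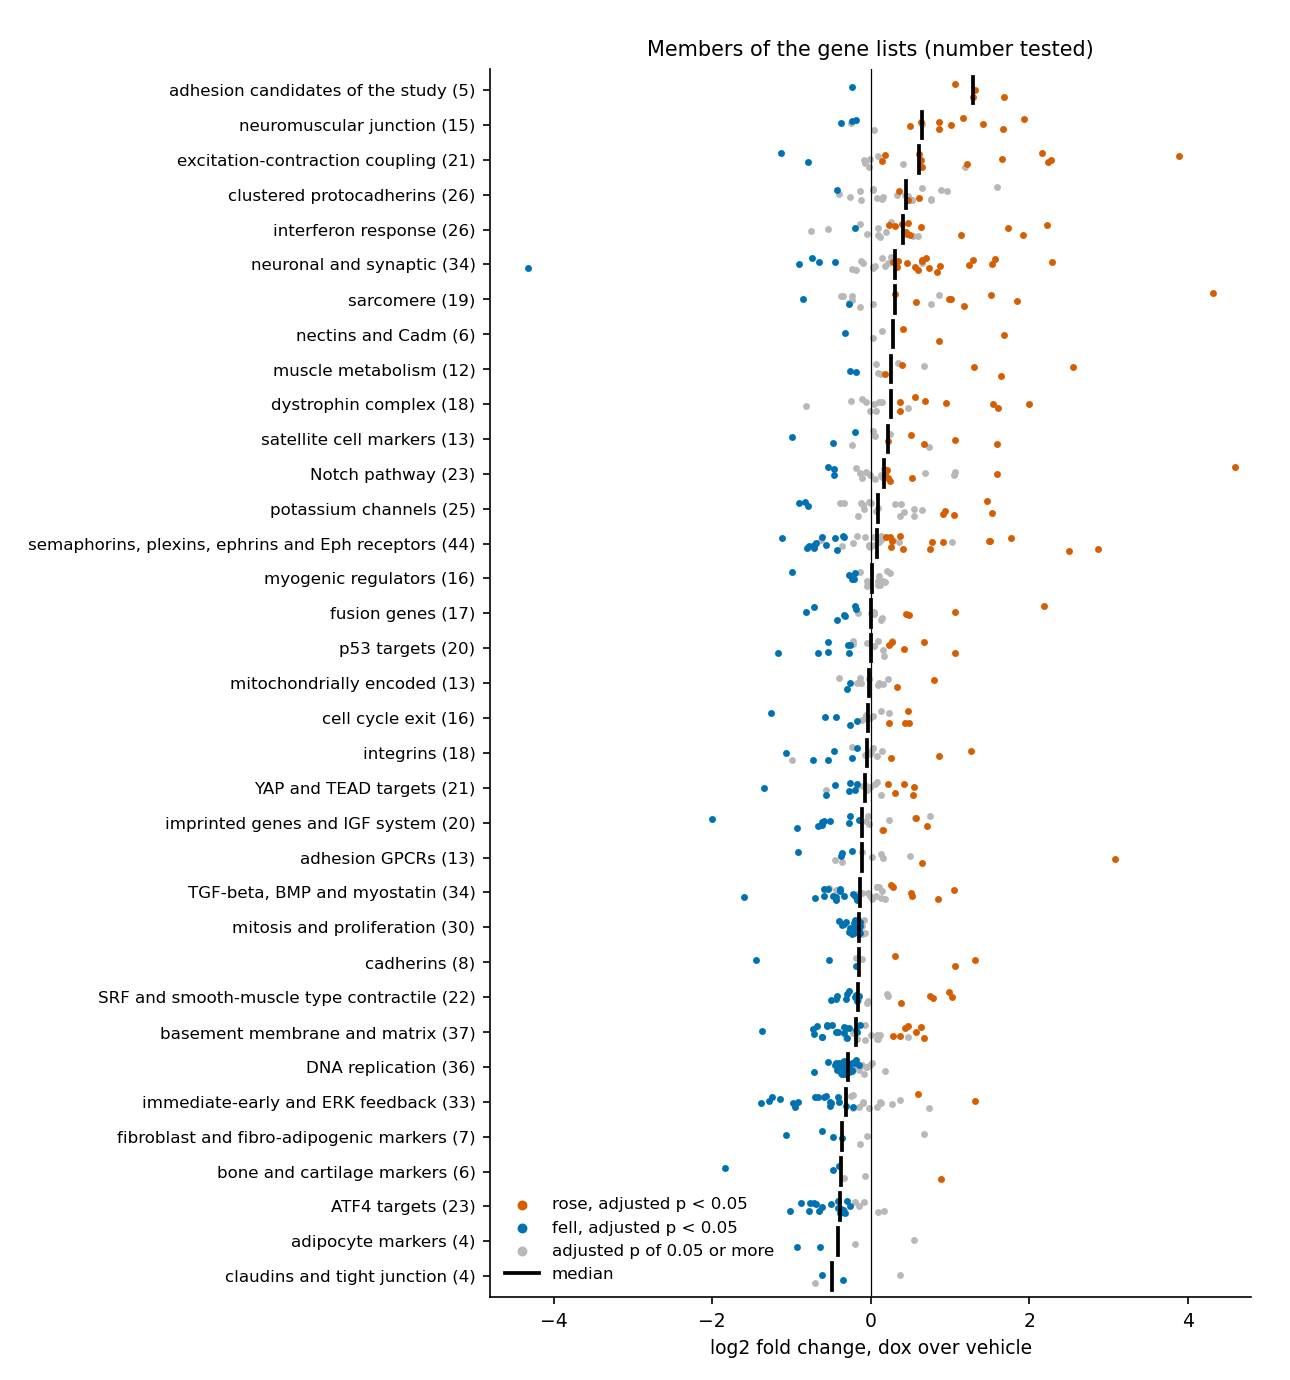
Log2 fold change of dox over vehicle for the members of 35 gene lists with at least 4 members tested (the myoblast identity markers are left out), 1 point per gene, with the number tested in brackets. Orange points rose and blue points fell at an adjusted p-value under 0.05, grey points did not pass, and black lines are medians. Lists run from the adhesion candidates of the study (median 1.29) to claudins (median -0.49), and 1 point beyond the axis is drawn at its edge.

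Markers of endothelial and immune cells were near 0 in all libraries. Of 10 endothelial markers, 0 were tested, their summed level ran from 0.574 to 1.13 CPM with dox and from 0.538 to 0.642 CPM with vehicle, and Kdr, Erg, Emcn and Cldn5 were at 0 in all 6 libraries. Of 10 immune markers, 2 were tested, with Lyz2 risen by 0.92 (a call lost without dox replicate 3, vehicle replicate 1 or vehicle replicate 3, adjusted p between 0.063 and 0.0824) and Ptprc, Adgre1, Itgam, Cd3e and Tyrobp at 0; the sum ran from 3.81 to 5.42 CPM with dox and from 2.24 to 3.34 CPM with vehicle. The 12 adipocyte markers summed to 50.5 to 52.5 CPM with dox and from 68.4 to 75.5 CPM with vehicle, with Plin4 and Pparg fallen (named after their values were seen), and Lep, Cfd and Ucp1 at 0. The 10 epithelial markers summed to 18.4 to 23.3 CPM with dox and from 45.9 to 51.8 CPM with vehicle, mostly Krt14, a keratin, which fell from 39.2 to 14.7 CPM (-1.42). Fibroblast markers fell in 4 of 7 tested, with Ly6a, the surface protein Sca-1, going from 89.9 to 42.9 CPM (-1.07). The bone and cartilage sum, from 516 to 564 CPM with dox and from 1747 to 1762 CPM with vehicle, was mostly Spp1. Of 13 satellite cell markers, 5 rose and 3 fell (38.5% and 23.1%, against 19.1% and 18.7% of all genes). Whether a change in the mixture of cells took part in these values was not tested, and in bulk RNA fewer cells of a type and less RNA per cell cannot be told apart.

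Libraries of the same line after 24 h of differentiation, with dox or vehicle given for that time, show where the response in growth medium differed. Of the 394 genes that rose over 2-fold at 0 h, 375 were higher with dox at 24 h too and 333 passed the test in that direction, while 7 passed in the other. Of the 184 that fell over 2-fold, 160 were lower and 103 passed, while 2 passed in the other direction. For comparison, 28.1% of the 14448 genes tested rose and 33.8% fell with dox at 24 h. The median log2 fold change of the 394 was 1.43 at 0 h and 1.87 at 24 h, and that of the 184 was -1.33 and -0.91. The first values of each pair chose the genes, so the smaller size at 24 h for the latter is a description.

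The difference between the 2 effects, tested as an interaction, passed an adjusted p-value of 0.05 for 34.1% of genes, for 140 of the 394 (99 with a higher value at 24 h and 41 with a lower one) and for 48 of the 184 (27 and 21). Among all genes 1926 of 4922 differences were above 0, and with RLE normalization 2289 of 4687 were, so their split depends on the scaling. Atp1b2 rose by 2.59 on the log2 scale at 0 h and by 5.58 at 24 h, a difference of 3.00 (SE 0.29, edgeR adjusted p = 6.07e-07). Chrnd rose with dox in growth medium and fell with dox at 24 h, where it had 4.67, 4.92 and 4.85 CPM with dox and 6.6, 9.76 and 7.49 CPM with vehicle, a difference of -2.39 (SE 0.24, edgeR adjusted p = 1.17e-06). Mymk had a log2 fold change of -0.038 at 24 h, a difference of -2.23 (SE 0.50, edgeR adjusted p = 0.00232). Ryr1 rose by 2.33 at 24 h, a difference of -1.56 (SE 0.50, edgeR adjusted p = 0.0233) and a call that was lost without vehicle replicate 1 or 3 of 0 h (adjusted p = 0.0711 and 0.0847) and that was -2.72 without vehicle replicate 2. Cyfip2 and Dgat2 also had a smaller effect at 24 h, with differences of -1.94 and -1.35. The adhesion candidates Cadm4, Mcam and Cdh23 had a larger effect, with differences of 1.25, 1.39 and 2.27, Itga3 turned from -0.24 to 1.23, and Cdh15 did not pass (0.15, edgeR adjusted p = 0.135).

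**Figure D5:**
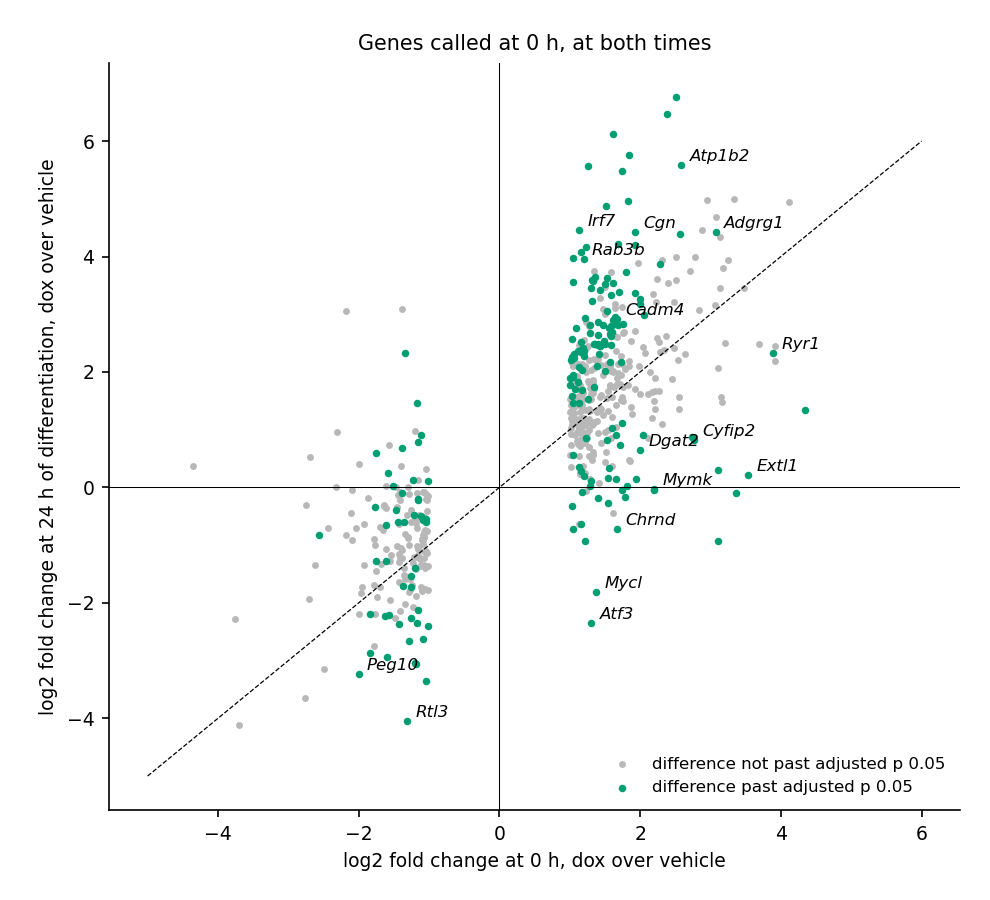
Log2 fold change of dox over vehicle at 24 h of differentiation (vertical axis) against that at 0 h (horizontal axis) for 576 of the 578 genes called at 0 h, with the dashed line marking equal effects. Green genes differed between the times at an adjusted p-value under 0.05 (140 of those that rose and 48 of those that fell) and grey genes did not pass. Atp1b2 and Irf7 lie above the line, and Chrnd, Mycl and Atf3 lie below 0 at 24 h.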

How the data were processed

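RNA was extracted with TriZol, poly(A) selected and made into NEBNext Ultra II libraries. The authors deposited Salmon estimated counts per transcript, not scaled for depth, made with nf-core/rnaseq; per the labels the build was mm10, and the annotation and any transgene sequence are not given in the sources used here. The estimated counts of 109617 transcripts were summed over 45706 genes and rounded, since 34.4% of values were not whole. Gene types, coordinates and lengths came from GENCODE (GRCm38), which matched 98.8% of the genes, and promoter sequences from RefSeq (GRCm38.p6).

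Genes passing filterByExpr were tested with edgeR 4.0.16 (R 4.3.3), using TMM factors and the quasi-likelihood test on the 6 libraries of 0 h. Calls required a Benjamini-Hochberg adjusted p under 0.05 and, where stated, a fold over 2. The 12 libraries of 0 h and 24 h gave the difference between times as an interaction. The depths of the 0 h libraries stand with the results, and the 24 h libraries were deeper, from 23424095 to 42023479 counts. The common biological coefficient of variation was 0.0635 at 0 h. The code was tested on simulated data. Alternatives were DESeq2 1.42.0, RLE factors, other filters, a replicate block, a test against a fold of 1.2, all 4 groups in 1 fit, each replicate left out and, chosen after the data were seen, an offset for GC content. An exact permutation test of 3 against 3 cannot go below p = 0.1 and was not used.

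Named genes were Myod1, Myog, Mymk, Mymx, Mef2a, Id3, Tcf12 and the 5 adhesion candidates; the 12 protein-coding genes per direction with the largest fold change among called genes with at least 5 CPM in the higher group and no overlap between the groups; the 6 per direction with the largest CPM difference among genes past the adjusted p; the 5 per direction whose effect differed most between the times among genes called at 0 h, past the adjusted p of the difference and with a mean of at least 5 CPM in 1 of the 4 groups; and called members and extremes of each of the 39 gene lists. Others are marked in the text. The members and lists were chosen with earlier results of these data known. Some genes that the rule named are not reported here.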

Additional observations from a re-analysis of the deposited data

Results flagged for a closer look

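The results given here are those whose dox effect differed between undifferentiated cells and 24 h of differentiation by the interaction test, given as the log2 effect at 24 h minus that at 0 h. Of the genes called at 0 h, 140 of the 394 that rose and 48 of the 184 that fell differed in this way. Among all 14448 genes tested in that fit the share was 34.1%. Groups of 3 were too small for a search for single outlying libraries.

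Among the genes chosen for the largest differences, with a mean of at least 5 CPM in 1 of the 4 groups, dox raised Atp1b2 (3.00), Irf7 (3.32, exons overlapping Phrf1), Rab3b (2.76), a Rab of regulated secretion, and Cgn (2.50), the tight junction protein cingulin, more at 24 h. Rpl35a-ps2 had a fitted difference of 10.75, which depends on the prior count. It is a processed pseudogene that can share reads with its parent and is uncertain, with 174, 375 and 156 counts in the vehicle libraries and 0, 0 and 0 in the dox libraries of 0 h, at least 88.4-fold lower with 3 counts as the floor of each dox library. The effect was lower at 24 h for Atf3 (-3.66), Extl1 (-3.32, or -3.99 without vehicle replicate 2 of 0 h), Mycl (-3.18), a MYC relative, Rtl3 (-2.73) and the acetylcholine receptor subunit gene Chrnd (-2.39). Rtl3 fell at 0 h, a call lost without dox replicate 2 (adjusted p = 0.0594) or vehicle replicate 2 (adjusted p = 0.0983).

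Of the genes named for their role, Myod1 differed by -0.37, with 0.094 at 0 h and -0.27 at 24 h, and Mymk by -2.23. The adhesion candidates Cdh23, Cadm4, Itga3 and Mcam differed by 2.27, 1.25, 1.46 and 1.39. Of the genes that led the rise at 0 h, Adgrg1 (1.35), Slc38a3 (1.82), Slc17a7 (1.59) and Hap1 (0.93) had a larger effect at 24 h, and Ryr1 (-1.56), Cyfip2 (-1.94) and Dgat2 (-1.35) a smaller one. Of those that led the fall, Peg10 (-1.23) and Spp1 (-0.35) fell further at 24 h, and Hmga2 (0.49) fell less.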

How the results depend on the processing

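The 394 genes that rose and the 184 that fell over 2-fold became 369 and 163 with DESeq2 (367 and 160 shared), 393 and 186 with RLE factors, 533 and 275 without a low-count filter, 315 and 146 with at least 1 CPM in 3 libraries, 451 and 203 with all 4 groups in 1 fit, and 382 and 186 with the GC offset, chosen after the data were seen. Leaving out each replicate gave 385 to 414 genes up, 171 to 233 down and 3869 to 5430 past the adjusted p-value, against 5122, with the highest number down without dox replicate 1. Testing against a fold of 1.2 left 1755 genes past the adjusted p-value, 341 up and 154 down over 2-fold. For the difference between times, leave-one-out fits gave 4229 to 4985 genes, 1643 to 1953 above 0 and 2586 to 3032 below. No value of a named gene that had passed the test changed sign under the alternatives run. Among values that had not passed, the sign changed in 3 fits at 0 h (Cd68 and Cdh1) and in 13 of the difference between times (Mymx, Nol4l, Has2 and Il33), with Nol4l going from -0.067 to 0.71 without vehicle replicate 2 of 24 h. Counted as pairs of a named gene and a fit, 63 calls at 0 h fell short of the threshold under an alternative. Genes such as Tnni2 and Ttn count there several times, and part of the pairs come from the test against a fold of 1.2. Whether the replicate numbers pair the samples is not given by the labels. Residual correlations cannot settle it, since they are centred within groups of 3. Those of same-numbered libraries were 0.074, -0.173 and 0.064, and dox replicates 1, 2 and 3 correlated best with vehicle replicates 2, 3 and 3. With a replicate block, 402 genes rose and 200 fell over 2-fold, and 5446 passed the adjusted p-value. Depth limits genes below about 1 CPM, where vehicle libraries often held few counts, and intervals cover the spread between these libraries only.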
